A study of Mus musculus with 24 samples.

Results

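The comparison described here covers 8 of the 24 mice of the series, all female: 4 taken at postnatal day 21 (p21) and 4 taken 1 week later (p28) under standard weaning (SW), in which the young leave the mother at day 21. The description labels of the p21 mice read SW as well, and they are called p21 alone here. The animals were chosen by their age, sex and weaning labels alone, and no measured value entered the choice. Inguinal white adipose tissue, the subcutaneous fat pad of the groin, was taken from each mouse and its poly(A) RNA was sequenced as 1 library per animal. The labels name no allele and no treatment other than the weaning; strain, genotype, diet, litter and time of collection are not given in the sources used here. The other 16 animals were 4 males at p21, 4 males at p28 SW, and 4 females and 4 males at p28 that stayed with the mother; they entered the model as separate groups, and the 8 males of the first 2 groups are used below for a test of whether a change differed between the sexes.

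The week after day 21 usually takes a laboratory mouse from fat-rich milk to a chow rich in carbohydrate. Adipocytes answer carbohydrate and insulin by making fatty acids from glucose (de novo lipogenesis), which elongases and desaturases then lengthen and desaturate, while milk supplies such fat ready-made. In female mice the groin pad also houses a mammary gland, whose ducts grow into the fat, and it holds a lymph node, nerves and vessels and lies against the muscle of the body wall, so RNA of the pad is never from adipocytes alone.

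Values are the authors' normalised reads, which carry 1 scaling factor per library and are not divided by gene length, so they compare animals and not genes. They are given in the order of p21 animals 30, 36, 55 and 56 and of p28 SW animals 73, 74, 75 and 81. Recovered reads in the listed protein-coding genes were 94050812 to 121233856 at p21 and 113509617 to 148827611 at p28. Markers of the white adipocyte were abundant in every library: the 10 of them summed to 29016 to 41774 at p21 and to 30029 to 36351 at p28. p21 animal 56 had 16.6% of its reads in mitochondrial genes, against 20.8% to 21.2% in the other p21 females and 20.3% to 25.1% at p28. Over genes, the rank correlation of value with GC content, relative to the median of all animals, was 0.34 in p21 animal 36 and between -0.10 and -0.07 in the other p21 females, and it ran from -0.33 to 0.53 at p28. The titles of the p21 libraries read p28, while their description and age fields read p21 and were followed, and the 2 ages come from separate runs of animal numbers, so age cannot be told apart from any batch that followed those numbers.

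Other tissues were unequally present in the pads (the plot of marker sums). 26 skeletal muscle genes summed to 972, 2307, 96.2 and 93.2 at p21 and to 1844, 2840, 642 and 4839 at p28, so that 2 of the p21 pads had very little muscle RNA and the groups overlapped. 22 mammary luminal genes, which mark the cells lining the ducts, summed to 177, 201, 99.8 and 232 at p21 and to 581, 479, 567 and 626 at p28, with no overlap. No luminal, basal or milk gene was at 0 in any of the 8 animals, and 1 of the 26 muscle genes was, in p21 animal 55. Lymph node B cell markers (14 genes) summed to 525 to 962 at p21 and 583 to 1169 at p28, and T cell markers (17 genes) to 904 to 1373 and 722 to 1172. In a whole pad, fewer cells of a type and less RNA per cell cannot be told apart.

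**Figure D1:**
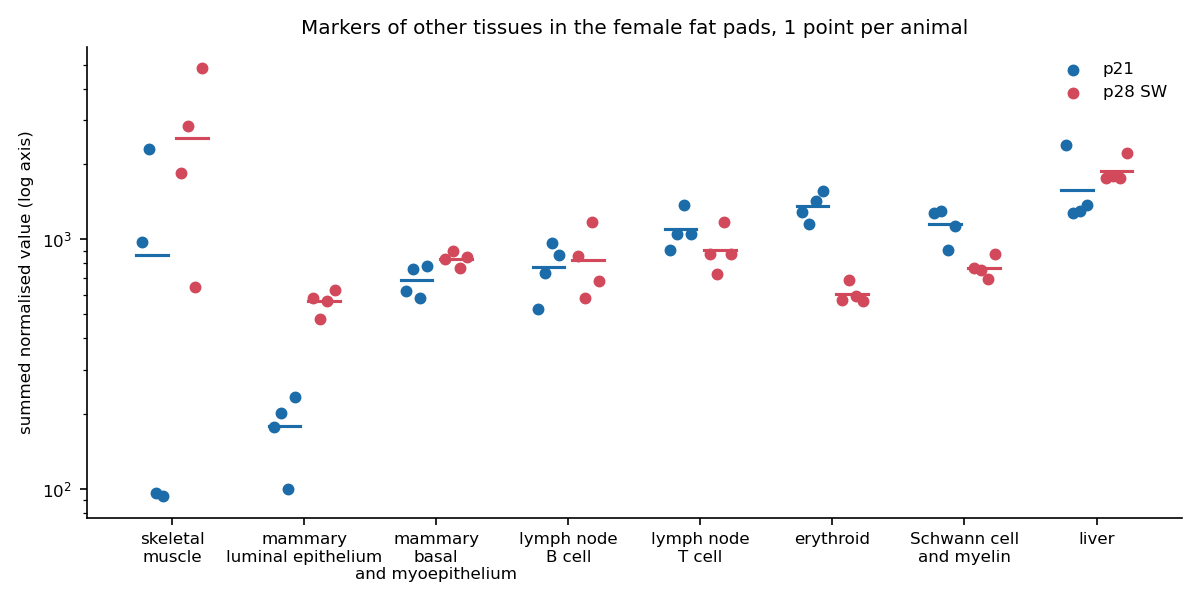
Summed normalised value (log axis) of the marker genes of 8 other tissues or cell types in each of the 4 p21 and 4 p28 SW females, with the group mean as a bar. Muscle varies most within a group, from 93.2 to 2307 at p21, while the mammary luminal, erythroid and Schwann cell sums do not overlap between the ages.

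Of 16005 genes tested, limma called 1860 (11.6%) between p21 and p28 SW females at a Benjamini-Hochberg adjusted p under 0.05. 1183 (7.39%) were higher at p28 and 677 (4.23%) lower, and the change was at least 2-fold, an absolute log2 change of 1, for 304 and 49 of them. The median log2 change over all genes was 0.01. The 4 and 4 animals did not overlap for 3447 genes (21.5%). With edgeR's quasi-likelihood test on the recovered reads 1472 genes were called, 791 higher and 681 lower, so the share of higher calls was 53.7% against 63.6% in the limma fit. The authors' deposited table calls 3844 genes for the same groups, 2151 higher and 1693 lower at p28, and 1796 of the 1860 are among them, all in the same direction.

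In males the same interval called 1901 genes (11.9%), 1105 higher and 796 lower. Both sexes called 727 genes, 39.1% of the female and 38.2% of the male calls, and 723 of these went the same way. Of the 1860 genes called in females, 1659 (89.2%) had the same sign in males, against 72.7% of all genes. The age by sex interaction, which tests whether the change itself differed, called 165 genes (1.03%), with the log2 change more positive in females for 154 and in males for 11. edgeR called only 4 genes for it, with 1081 at an unadjusted p under 0.05.

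**Figure D2:**
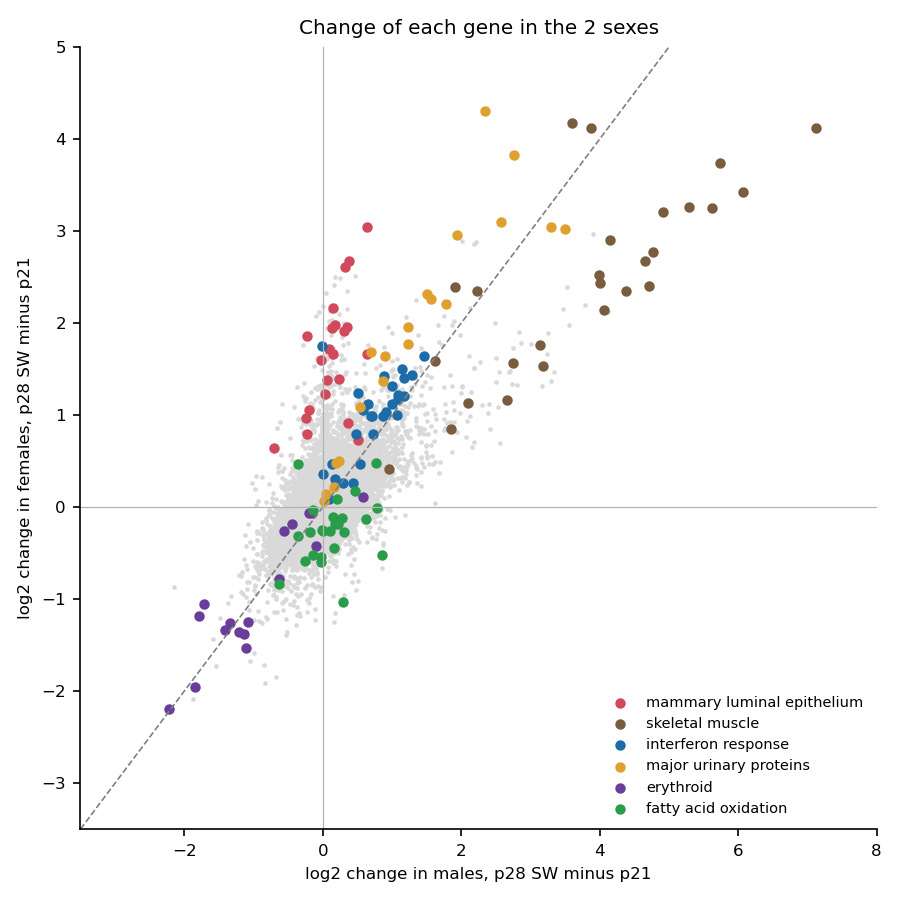
Log2 change from p21 to p28 SW of each of 16005 genes in females (vertical axis) against that in males (horizontal axis), with the genes of 6 lists in colour and the line of equal change dashed. Mammary luminal genes lie above the line (median 1.66 in females and 0.15 in males), most muscle genes lie below it (2.41 and 4.00), and the erythroid medians are under 0 in both sexes (-1.19 and -1.11).

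Genes of the mammary epithelium were higher at p28 in females. Of 22 luminal genes 21 were called higher and 0 lower (background 7.39% of all genes), with a median log2 change of 1.66. Males, whose pads hold at most a rudiment of the gland, had 1 of the 22 called and a median of 0.15. Krt19, a keratin of simple epithelia, was 6.58, 11.0, 4.59 and 14.7 at p21 and 65.7, 68.1, 84.0 and 93.4 at p28, with a limma log2 change of 3.05 (SE 0.52, adjusted p 0.000382). Krt18, another keratin of luminal cells, was 9.04, 14.2, 3.88 and 15.7 at p21 and 71, 54.2, 60.9 and 68 at p28, with no overlap and by limma a log2 change of 2.60 (SE 0.55, adjusted p 0.00278). The luminal counts depend on the test: edgeR called 9 of the 22 and DESeq2 called 10, and Krt18 had an edgeR adjusted p of 0.192. The interaction was called for 7 of the 22 in the limma fit, among them Cldn4, a tight junction claudin, whose log2 change was 2.16 in females and 0.15 in males (interaction limma adjusted p 0.000194, edgeR 0.946).

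Basal and myoepithelial genes, which mark the outer layer of the ducts and the contractile cells of the gland, were called higher for 8 of 16 and lower for 0, with a median log2 change of 0.69 in females and -0.01 in males. edgeR called 2 of them, and limma called 4 without p21 animal 55, 4 without the 3 animals of the muscle analysis described below and 5 without p21 animal 30 or p28 SW animal 81. Oxtr, the oxytocin receptor, was 6.53, 15.7, 4.39 and 13.4 at p21 and 90.0, 71.5, 55.7 and 76.2 at p28, with a limma log2 change of 2.88 (SE 0.37, adjusted p 1.47e-05). It rose in males as well, by 2.21 (limma adjusted p 0.00055), where the basal keratin Krt5 changed by -0.12. Of the basal keratins in females, Krt5 rose by 1.53 (limma adjusted p 0.018, edgeR 0.536), a call that was lost in 3 of the 8 fits without 1 animal, without p21 animal 30 or 55 or p28 SW animal 81 (limma adjusted p up to 0.0854). Krt14 was not called (log2 change 0.83, limma adjusted p 0.0576).

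Receptors and targets of steroid hormones and prolactin followed: 7 of 17 were called higher in females by limma, 3 by edgeR and 3 by DESeq2, and 0 in males by limma. The limma interaction was called for 3. Pgr, the progesterone receptor, was 1.81, 1.42, 0.578 and 3.50 at p21 and 11.6, 10.1, 14.1 and 6.64 at p28. Its log2 change was 2.10 (SE 0.28, limma adjusted p 2.45e-05), with an edgeR adjusted p of 0.132. Gata3, a transcription factor of luminal cells that also restrains adipogenesis, was 12.4, 13.5, 8.95 and 13.5 at p21 and 45.4, 40.3, 37.1 and 49.3 at p28, and it rose by 1.76 (limma adjusted p 5.95e-05) without overlap, while it changed by -0.29 in males. Cited1, a co-activator found with the oestrogen receptor in luminal cells, rose by 2.08 in females and changed by -0.10 in males. Gata3 kept its interaction call with edgeR (adjusted p 0.0409), which Pgr and Cited1 did not (1 and 0.225). Milk genes numbered 6, of which Muc1 and Lalba were called higher by limma and 0 by edgeR. Muc1 kept its call in 3 of the 8 fits without 1 animal (without p21 animal 36 or 56 or p28 SW animal 74) and Lalba in 1 (without p21 animal 36), with limma adjusted p up to 0.158 and 0.163. The casein Csn3 was 18.5 to 91.1 at p21 and 40.7 to 71.6 at p28 and was not called. Of 7 epidermal genes 2 were called higher, Dsp (2.19) and Dmkn (0.63), and the sum over the 7 was 21.1 to 28.5 at p21 and 43.9 to 58.1 at p28. Dsp, which also joins cells of ducts, lost its call with edgeR (adjusted p 0.289) and without p21 animal 30 or 55 or p28 SW animal 73, 75 or 81 (limma adjusted p up to 0.0934).

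Muscle genes had the largest median change of any list and nearly no calls. All 26 were higher on average at p28, with a median log2 change of 2.41, but 1 was called and the groups overlapped for every one. Myh4, the fast myosin of type IIb fibres, was 316, 461, 0.289 and 0.495 at p21 and 299.7, 699, 109 and 1118 at p28, with p21 animals 55 and 56 far below all others. Its log2 change was 4.12 (SE 2.00, limma adjusted p 0.212), and it was -0.43 once p21 animals 55 and 56 and p28 SW animal 81, those with the least and the most muscle, were left out. The called gene was Myh2, of type IIa fibres (log2 change 4.17, SE 1.31, limma adjusted p 0.0406, edgeR 0.245). Its call was lost in 6 of the 8 fits without 1 animal, and remained only without p21 animal 36 or p28 SW animal 75 (limma adjusted p up to 0.113). In males 19 of the 26 were called higher, with a median of 4.00, and the interaction was called for 0.

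To set the fat pad's own genes apart from muscle and mammary content, 2 further analyses were made. In the first, each animal's muscle and mammary luminal scores, the mean log2 values of those lists, were added to the model, so that a gene's relation to them is estimated within groups. The mammary scores were 1.83 to 2.91 at p21 and 3.85 to 4.16 at p28 and did not overlap, so the age difference given the scores is extrapolated, and the standard errors of the called genes rose by a median factor of 1.84. 87 genes (0.544%) were then called. Of the 1860 genes, 84 were called in the same direction and 1805 (97.0%) had the same sign, with a median ratio of the adjusted to the unadjusted change of 0.85 (0.77 for the higher genes and 0.99 for the lower). A called positive slope on the mammary score was found for 59 of the 1860 (3.17%, against 0.41% of all genes), all of them higher at p28, and on the muscle score for 3 (0.16% against 1.34%). The genes that make up each score were not left out of these counts, and each is part of its own score. With edgeR 34 genes were called with the scores, and with only the 2 groups in the fit 0 were (limma, 688 at an unadjusted p under 0.05).

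In the second, an alternative chosen after the data were seen, p21 animals 55 and 56 and p28 SW animal 81 were left out, which leaves 2 against 3 animals with overlapping muscle scores. 892 genes were called (598 higher, 294 lower), and 822 of them were among the 1860, all in the same direction. The counts below without these 3 animals refer to this fit.

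**Figure D3:**
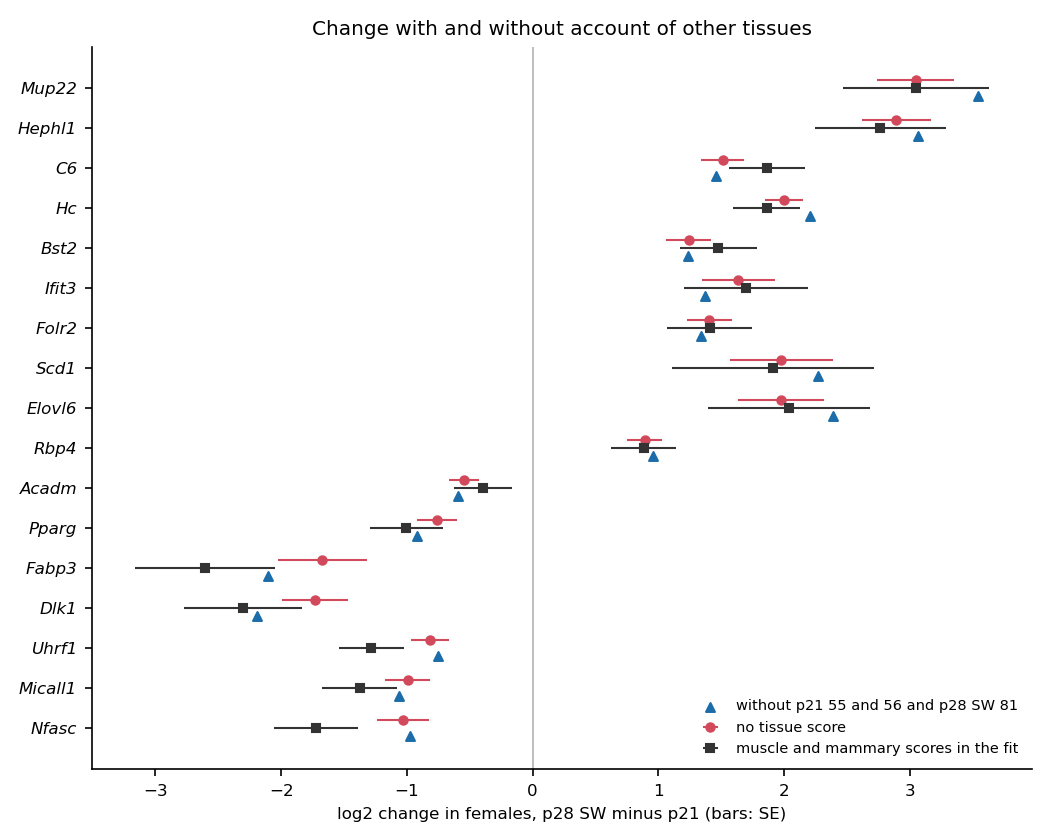
Log2 change from p21 to p28 SW females of 17 genes with its SE (circles), the same with the muscle and mammary scores in the model (squares, SE) and without the 3 animals of most and least muscle (triangles). Every gene shown keeps its direction in all 3 analyses, and the bars with the scores are the wider ones. The 17 were picked, some of them because they were called both with and without the scores. Ppara, Myh4, Mki67 and Ucp1, whose sign turned with the scores or without the 3 animals, are not among them.

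Among genes called with and without the scores and outside the other-tissue lists, the 6 largest rises were major urinary proteins. These Mup genes encode small carriers of pheromones made mainly by the liver and excreted in urine. 19 of 20 were called higher and 0 lower in females (median log2 change 1.87), and 15 of 20 in males (median 1.23); 13 were called with the scores and 17 without the 3 animals. Mup7 was 0.384, 0.978, 2.44 and 2.09 at p21 and 67.3, 46.9, 44.8 and 28.9 at p28, with a limma log2 change of 4.31 (SE 0.34, adjusted p 3.4e-08). Mup22 was 12.9, 22.5, 37.9 and 40.0 at p21 and 260, 172, 206 and 259 at p28, with a limma log2 change of 3.05 (SE 0.31, adjusted p 7.07e-07). No p28 animal came near the p21 range for either gene. The other rises of the rule were Mup15 (3.82), Mup10 (3.10), Mup11 (3.02) and Mup17 (2.95). These genes are near-identical copies on chromosome 4, so the share of reads assigned to each is uncertain. Of 14 liver genes, 3 were called higher, the fibrinogens Fgb (2.48) and Fgg (1.76) and transferrin (Trf, 0.70). edgeR called 1 of these, Trf, with an adjusted p of 0.0774 for Fgb and 0.455 for Fgg. Without the 3 animals of the muscle analysis limma called Fgb (adjusted p 0.00134) but not Fgg (0.066) or Trf (0.107). Albumin (Alb) was 24.0 to 31.1 at p21 and 15.7 to 32.5 at p28 and was not called (log2 change -0.37, limma adjusted p 0.218).

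A further 3 of the largest such rises were in genes of unrelated kinds. Hephl1, a copper-dependent ferroxidase of the ceruloplasmin family, was 0.416, 1.35, 0.858 and 1.89 at p21 and 20.0, 13.5, 10.7 and 14.3 at p28, a log2 change of 2.89 (limma adjusted p 3.09e-07). It rose in males too, by 2.01. Upk3a, a uroplakin, rose by 2.50 and Itih2, a hyaluronan-binding inter-alpha inhibitor chain, by 2.35. With the scores in the model Upk3a rose by 1.16, and DESeq2 did not call it (adjusted p 0.195). Within groups the slope on the mammary score was called for Upk3a (0.80, limma adjusted p 0.00162) but not for Itih2 (0.58, limma adjusted p 0.118). They changed by 0.17 and 0.34 in males on the log2(value + 1) scale, with male means of 0.0166 and 0.182 for Upk3a and 0.148 and 0.481 for Itih2, and the interaction was called by limma (adjusted p 0.000332 and 0.00049) and not by edgeR (0.995 and 0.514). For Upk3a, though not for Itih2, the male SDs (0.0332 and 0.363) exceeded the male means.

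Of 18 genes of de novo lipogenesis, the synthesis of fatty acids from sugar and acetate, 6 were called higher and 0 lower and 12 were not called (background 7.39% higher), with a median log2 change of 0.54 (0.50 in males, where 7 were called higher). Scd1, the stearoyl-CoA desaturase that makes oleate, was 4595, 8415, 11295 and 13464 at p21 and 30299, 36352, 24565 and 52230 at p28. Every p28 animal was above every p21 animal, with a limma log2 change of 1.98 (SE 0.41, adjusted p 0.00234). Elovl6, which extends palmitate to stearate, was 93.0, 302, 304 and 320 at p21 and 1028, 1009, 662 and 972 at p28, with a limma log2 change of 1.98 (SE 0.34, adjusted p 0.000447). p21 animal 30 was the lowest for this gene and for Scd1. Slc25a1, which carries citrate out of the mitochondrion as the carbon for synthesis, was 648, 750, 603 and 671 at p21 and 1437, 1856, 1272 and 1712 at p28, and it rose by 1.22 (SE 0.20, limma adjusted p 0.000268).

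The remaining calls of the list were weaker. Tkt, transketolase of the pentose phosphate pathway, rose by 1.12 (limma adjusted p 0.0186), Acss2, which activates acetate, by 0.96 (limma adjusted p 0.0497) and Acaca, the acetyl-CoA carboxylase that commits carbon to synthesis, by 0.85 (limma adjusted p 0.0314). Tkt lost its call without p21 animal 30 or p28 SW animal 74 or 81 (limma adjusted p up to 0.0906), and Acaca without the same animals or p28 SW animal 73 (up to 0.142). Acss2 lost it in 7 of the 8 fits without 1 animal, all but that without p21 animal 56 (up to 0.213), and with edgeR (adjusted p 0.103). Fasn, the fatty acid synthase, was 3636, 8433, 5831 and 7352 at p21 and 7790, 11008, 8116 and 15145 at p28; the groups overlapped and it was not called (log2 change 0.75, limma adjusted p 0.138). Srebf1, which encodes the transcription factor SREBP1 that drives these enzymes, had a log2 change of -0.27 and was not called. The list had 3 calls without p21 animal 30, p28 SW animal 74 or p28 SW animal 81, 3 without the 3 animals of the muscle analysis and 0 with the tissue scores, where its median stayed at 0.50.

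Elongases and desaturases gave 6 calls of 20, all higher, against 8 higher and 1 lower in males. Besides Scd1 and Elovl6 these were Elovl3, Scd3, Hacd4 and Elovl5. Elovl3, an elongase of saturated chains that is typical of brown and beige fat, was 2.26, 1.14, 2.18 and 1.75 at p21 and 13.6, 6.68, 3.09 and 9.58 at p28, with a limma log2 change of 1.58 (SE 0.35, adjusted p 0.00418). Scd3 rose by 1.07 and is a close paralogue of Scd1, so some of its reads may be shared. Elovl5, of the polyunsaturated chains, rose by 0.49 (limma adjusted p 0.0175), a call lost without p21 animal 30 or 56 or p28 SW animal 73 or 74 (limma adjusted p up to 0.0774). The desaturase Fads1 (-0.36), of arachidonate synthesis, was not called. 3 of the 20 were called without the 3 animals of the muscle analysis and 0 with the scores, where the median was 0.34, against 0.32 without them.

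Of 24 genes of cholesterol synthesis 3 were called lower and 0 higher (background 4.23% lower), and 5 lower in males. Hsd17b7, a late enzyme of the pathway, fell by 0.66 (limma adjusted p 0.0484) but was called in only 1 of the 8 fits without 1 animal, that without p21 animal 30 (limma adjusted p up to 0.162).

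The enzymes of fatty acid and cholesterol synthesis are textbook targets of SREBP factors, which bind sterol regulatory elements beside CCAAT boxes, so both were searched in the promoters. In RefSeq promoters of build GRCm38.p6, 250 bases before to 50 after the start, the sterol regulatory element TCACNCCAC, on either strand, was found for 1 of 17 lipogenesis genes, 0 of 16 elongase and desaturase genes and 1 of 16 cholesterol genes with an entry, against 1.4% of all 27025 genes in the table. The motif CCAAT, on either strand, was found for 12 of 17 lipogenesis genes (70.6%), 7 of 16 elongase and desaturase genes (43.8%) and 15 of 16 cholesterol genes (93.8%), against 41.1% of all. A match is a description of the letters, and its absence says nothing of the factor.

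**Figure D4:**
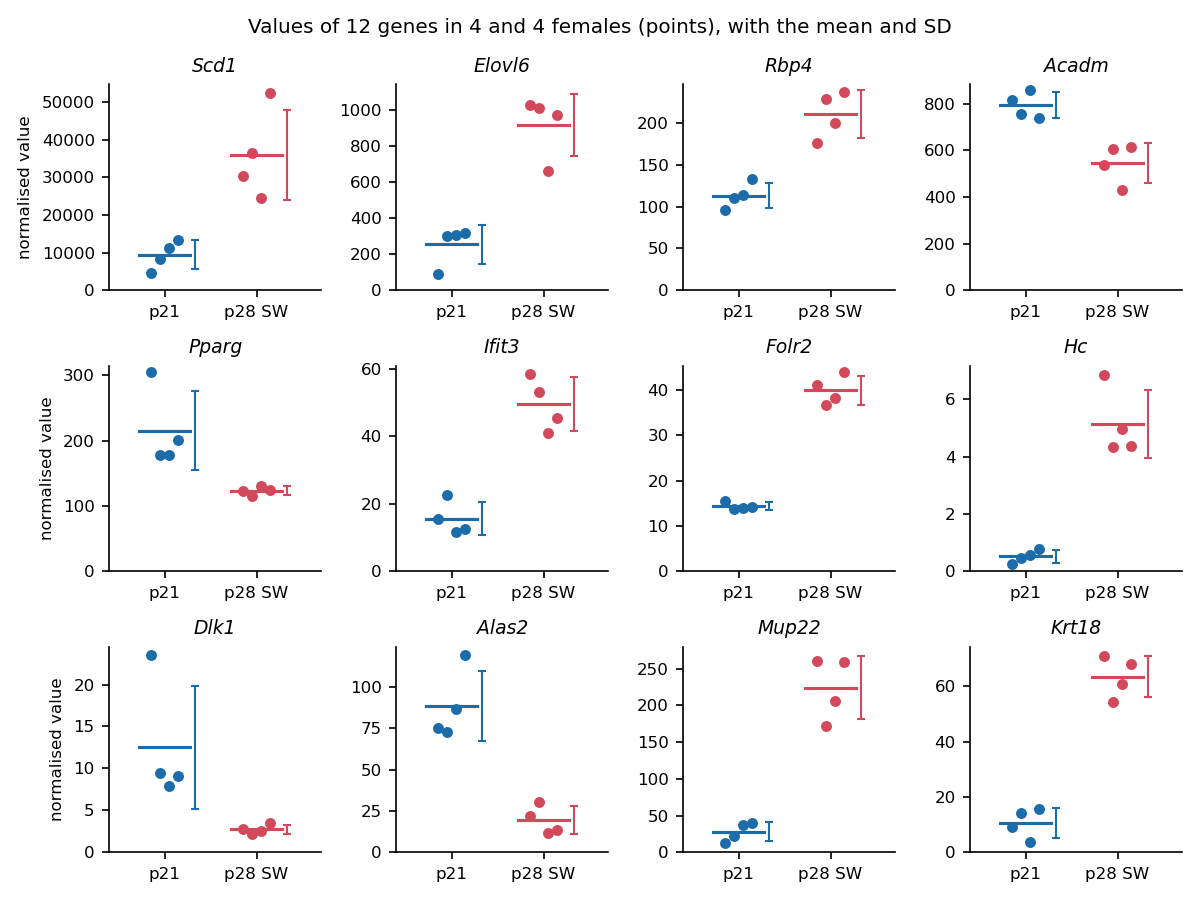
Normalised value of 12 genes in each of the 4 p21 and 4 p28 SW females (points), with the mean (bar) and SD. The 2 ages do not overlap for any of the 12, and p21 animal 30 is the lowest p21 point of Elovl6 and the highest of Pparg and Dlk1.

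Of 25 genes of fatty acid oxidation, which burn fatty acids, 6 were called lower and 1 higher and 18 were not called (background 4.23% lower and 7.39% higher), with a median log2 change of -0.26, while males had 3 higher and 1 lower with a median of 0.15. Acadm, the medium-chain acyl-CoA dehydrogenase, was 815, 756, 860 and 740 at p21 and 539, 604, 429 and 613 at p28, with a limma log2 change of -0.55 (SE 0.12, adjusted p 0.00386). Etfdh, which passes the electrons of fatty acid oxidation to ubiquinone, was 315, 272, 254 and 224 at p21 and 176, 186, 136 and 206 at p28, with a limma log2 change of -0.60 (SE 0.12, adjusted p 0.0024). Neither gene overlapped between the ages. Their changes in males were -0.03 and -0.02, but the interaction was not called for either (limma adjusted p 0.217 and 0.165). Acaa2, the last thiolase of the mitochondrial spiral, fell by 0.84 and by 0.64 in males. Cpt1a, which admits long chains to the mitochondrion and is the liver-type form, went the other way, from 31.2, 34.8, 33.2 and 36.1 to 41.0, 50.6, 42.7 and 56.8 (log2 change 0.48, limma adjusted p 0.00432). The transcription factor Ppara fell by 1.04 (limma adjusted p 0.0487) but was called neither by edgeR (adjusted p 0.0547) nor in any of the 8 fits without 1 animal, and its change was 0.07 with the tissue scores. 4 of the 25 were called without p28 SW animal 75 and 5 without the 3 animals of the muscle analysis. None was called with the scores in the limma fit, where the median was -0.14.

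Thermogenic and beige genes were called lower for 5 of 23 and higher for 1, Elovl3. Fabp3, a fatty acid binding protein of oxidative tissues, was 49.5, 93.3, 69 and 32.4 at p21 and 20.9, 19.8, 8.10 and 24.9 at p28. Its log2 change was -1.67 (SE 0.35, limma adjusted p 0.00283), and it was still called with the scores, at -2.61 (limma adjusted p 0.0341). Gk, glycerol kinase, fell by 1.20 (limma adjusted p 0.00471) and Slc27a2, an acyl-CoA synthetase, by 1.15, a call lost without p21 animal 30 or p28 SW animal 75 (limma adjusted p up to 0.0646). Ppargc1a, the coactivator of mitochondrial genes, fell by 0.70 (limma adjusted p 0.0207), a call lost without p21 animal 30 or p28 SW animal 73 or 75 (limma adjusted p up to 0.0825). Ucp1, the uncoupling protein itself, was 33.7, 218, 454 and 271 at p21 and 175, 179, 76.3 and 116 at p28, with wide overlap and no call (log2 change -0.43, SE 0.57, limma adjusted p 0.711), and its sign turned without p21 animal 55 (0.03). The list had 3 calls without p28 SW animal 75 and 3 without the 3 animals of the muscle analysis.

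The other lists of adipocyte function changed in few members. Fatty acid uptake had 2 of 14 called, both higher: Apoc1, an apolipoprotein (1.00), and Angptl4, an inhibitor of lipoprotein lipase (0.79), whose call was lost with edgeR (adjusted p 0.101) and without p21 animal 30, 55 or 56 or p28 SW animal 74 or 81 (limma adjusted p up to 0.188). Lpl, lipoprotein lipase itself, was not called (-0.16). Triglyceride assembly had 2 higher and 2 lower of 18, and lipolysis and droplet coat proteins 2 lower of 22, Abhd5 (-0.57) and Plin5 (-0.78), against 8 higher and 1 lower in males. These 2 each lost the call in 6 of the 8 fits without 1 animal, Abhd5 in all but those without p21 animal 36 or p28 SW animal 74 and Plin5 in all but those without p21 animal 56 or p28 SW animal 74 (limma adjusted p up to 0.173 and 0.0983). Insulin signalling and glucose uptake had 3 higher and 3 lower of 21, with 2 calls left without p21 animal 30 and 3 without p28 SW animal 74. The clearest was the fructose transporter Slc2a5, at 5.17, 36.8, 26.5 and 19.2 at p21 and 63.7, 79.4, 48.9 and 66 at p28 (log2 change 1.77, SE 0.38, limma adjusted p 0.00305). Branched-chain amino acid breakdown had 4 lower and 1 higher of 22, with 2 calls left without p21 animal 36 or p28 SW animal 74 or 75 and 3 without p21 animal 30 or p28 SW animal 73 or 81. Retinoid metabolism had 5 higher of 22, with 3 by edgeR and 3 left without p21 animal 55 or p28 SW animal 81, and xenobiotic metabolism 3 higher and 1 lower of 22.

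Adipokines, the hormones of fat, split in direction, with 5 higher and 2 lower of 19 (4 calls without p21 animal 55 and 3 without the 3 animals of the muscle analysis). Rbp4, the plasma retinol carrier, was 95.4, 110, 113 and 132 at p21 and 176, 229, 199.5 and 237 at p28, with a limma log2 change of 0.89 (SE 0.14, adjusted p 0.000122). Agt, angiotensinogen, was 195, 90.0, 91.6 and 131 at p21 and 19.8, 38.0, 37.5 and 58.2 at p28, with a limma log2 change of -1.72 (SE 0.40, adjusted p 0.00523). Nampt, which makes a precursor of NAD, was 405, 208, 243 and 216 at p21 and 146, 134, 126 and 128 at p28, with a limma log2 change of -0.95 (SE 0.15, adjusted p 0.000244). None of the 3 overlapped between the ages. Leptin (Lep) was 272, 157, 219 and 311 at p21 and 162, 124, 151 and 120 at p28 and was not called (log2 change -0.74, limma adjusted p 0.175), nor was adiponectin (Adipoq, 0.37, limma adjusted p 0.0842), which was called without p21 animal 30 (0.54, limma adjusted p 0.00434).

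Among 22 adipogenic transcription factors, Gata3 rose and 2 fell. Pparg, the master regulator of the fat cell, was 305, 178, 177 and 201 at p21 and 123, 115, 131 and 124 at p28, with a limma log2 change of -0.76 (SE 0.16, adjusted p 0.00235) that was -0.17 in males (interaction limma adjusted p 0.38). It was -0.92 (limma adjusted p 0.0128) without the 3 animals of the muscle analysis. Ebf2, which marks brown and beige precursors, fell by 0.55 (limma adjusted p 0.0122), a call lost without p21 animal 36 or p28 SW animal 75 (limma adjusted p up to 0.0547). Other genes with large falls were Anxa8, an annexin (-1.85), and Cpn2, a subunit of plasma carboxypeptidase N, at 16.5, 20.9, 22.4 and 16.8 at p21 and 4.88, 8.22, 4.88 and 5.13 at p28 (-1.59, limma adjusted p 4.61e-05).

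**Figure D5:**
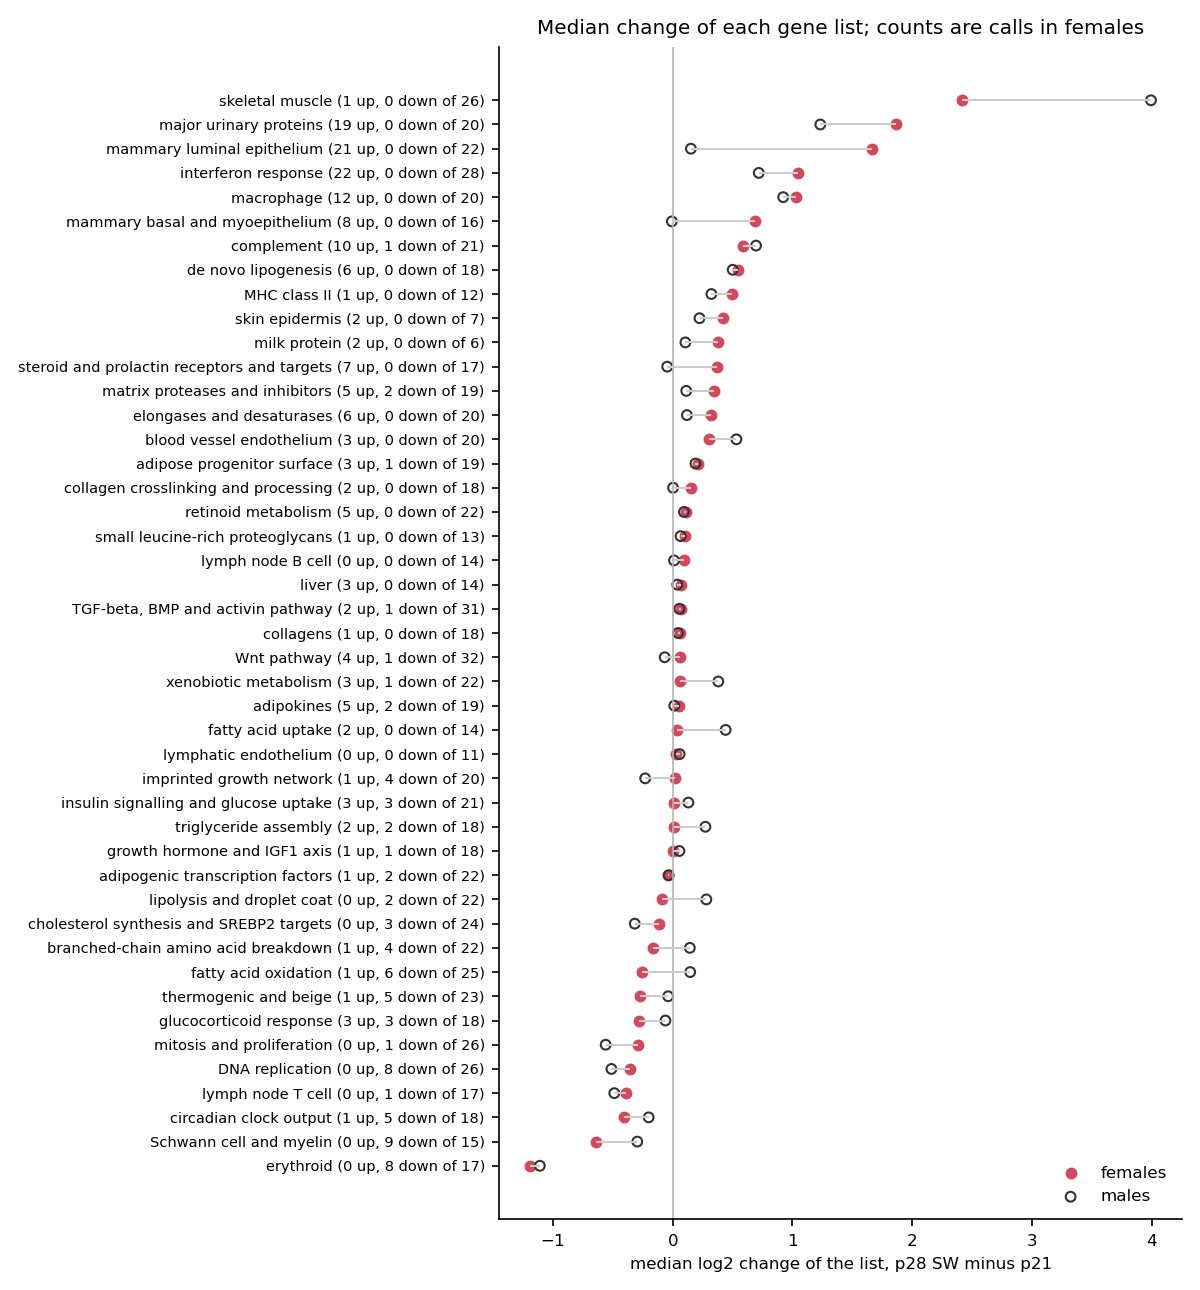
Median log2 change from p21 to p28 SW of each gene list in females (filled) and males (open), with the number of its genes called in females. Muscle, major urinary protein, mammary luminal, interferon and macrophage lists lie above 1 in females, and the erythroid list (-1.19) and the Schwann cell list (-0.64) lie lowest.

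Interferon-stimulated genes, which are switched on through an element of GAAA repeats in their promoters, were the immune list with the most calls. Of 28, 22 were called higher and 0 lower (background 7.39%), with a median log2 change of 1.05, and all 28 had a positive change. edgeR also called 22. In males 18 were called higher (median 0.72), and the interaction was called for 1, Ido1. Ifit3, an RNA-binding effector, was 15.7, 22.6, 11.6 and 12.5 at p21 and 58.6, 53.3, 41.0 and 45.5 at p28, with a limma log2 change of 1.64 (SE 0.29, adjusted p 0.000523). Bst2, tetherin, which holds budding virus at the membrane, was 12.5, 13.6, 13.1 and 10.7 at p21 and 26.1, 42.5, 29.8 and 27.0 at p28, with a limma log2 change of 1.24 (SE 0.18, adjusted p 6.76e-05). Oas1a, which makes the 2'-5' oligoadenylate that activates RNase L, was 1.56, 2.74, 1.66 and 1.37 at p21 and 5.94, 6.41, 5.55 and 5.75 at p28, with a limma log2 change of 1.31 (SE 0.18, adjusted p 3.3e-05). No p28 animal fell within the p21 range of these 3 genes. Irf7, the factor that amplifies the response, rose by 1.18 and the chemokine Cxcl9 by 1.21. Ifit3 and Oas1a have close paralogues, Ifit3b and Oas1g, that were also called and may share reads. 14 of the 28 were called without the 3 animals of the muscle analysis and 3 with the tissue scores, where the median was 1.06.

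The element can be seen in the promoters of members that rose. The motif GAAANNGAAA or its reverse complement lies in the 300-base promoter of 13 of the 20 list genes with an entry (65%), and of 11 of the 17 that were called (64.7%), against 4.0% of all 27025 genes. The motif was chosen after the changes were known, and a match is a description of the letters. The windows below, 60 bases each from before the start in RefSeq build GRCm38.p6, are shown because these genes are among the called members; the match nearest the 5′ end is in capitals.
Ifit1 (chr19:34640760-34640819, plus strand): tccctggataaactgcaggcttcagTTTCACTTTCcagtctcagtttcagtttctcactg
Ifit3 (chr19:34583348-34583407, plus strand): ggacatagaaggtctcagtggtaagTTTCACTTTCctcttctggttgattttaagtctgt
Isg15 (chr4:156200862-156200921, minus strand): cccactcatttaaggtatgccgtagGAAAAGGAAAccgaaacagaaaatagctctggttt
Oas1a (chr5:120907526-120907585, minus strand): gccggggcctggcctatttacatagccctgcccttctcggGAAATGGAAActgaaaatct
Rsad2 (chr12:26456538-26456597, minus strand): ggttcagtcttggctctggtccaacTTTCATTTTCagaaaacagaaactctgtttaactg
Bst2 (chr8:71537568-71537627, minus strand): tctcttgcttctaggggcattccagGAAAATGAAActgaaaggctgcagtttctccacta
The match starts 104 bases before the start of Ifit1, 156 before that of Ifit3, 78 before that of Isg15 and 20 before that of Oas1a, and 120 and 130 before those of Rsad2 and Bst2. Ifit1 was 11.1, 14.0, 6.47 and 5.35 at p21 and 30.4, 33.5, 20.1 and 18.4 at p28 (log2 change 1.42), Isg15 3.88 to 7.21 and 9.70 to 16.0 (1.12), and Rsad2 18.2 to 34.2 and 43.2 to 57.9 (1.12). All 6 genes shown were called by limma and by edgeR.

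Macrophage genes were also higher. Of 20, 12 were called higher and 0 lower, with a median log2 change of 1.03 (11 higher and 0.92 in males), and edgeR called 12. The summed value of the list, in which the most abundant genes weigh most, overlapped between the ages, at 4194 to 6390 and 4464 to 5983. The list includes Lpl, named above under fatty acid uptake, so this sum is not a measure of macrophages alone. Folr2, a folate receptor of resident macrophages, was 15.6, 13.7, 14.1 and 14.2 at p21 and 41.0, 36.5, 38.2 and 43.8 at p28, with a limma log2 change of 1.41 (SE 0.18, adjusted p 1.47e-05). Adgre1, which encodes the F4/80 antigen, was 6.70, 8.43, 8.87 and 9.41 at p21 and 25.5, 24.2, 19.6 and 21.7 at p28, and Csf1r, the receptor of their growth factor, was 39.3, 39.0, 34.4 and 34.3 at p21 and 77.6, 83.1, 81.3 and 94.8 at p28. Their log2 changes were 1.35 and 1.17, and the groups were tight and apart for all 3. Timd4, of long-lived resident cells, rose by 1.05. Lyve1, at 32.0 to 53.4 and 21.6 to 30.9, was the lowest of the list (log2 change -0.69, limma adjusted p 0.0994, not called), and Mrc1 (0.70) and Cd163 (1.12) were not called. 9 of the 20 were called without the 3 animals of the muscle analysis and 0 with the scores, where the median was 1.02 and the standard errors were wider.

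Complement genes were called higher for 10 of 21 and lower for 1, including the C1q chains that macrophages make. C6, of the membrane attack complex, was 0.656, 0.226, 0.395 and 0.376 at p21 and 3.49, 2.95, 2.40 and 3.28 at p28, with a limma log2 change of 1.51 (SE 0.17, adjusted p 3.01e-06), and rose in males by 1.34. Hc, which encodes complement C5, was 0.264, 0.470, 0.588 and 0.779 at p21 and 6.85, 4.35, 4.95 and 4.37 at p28. Its log2 change was 2.00 (SE 0.15, limma adjusted p 1.64e-08) in females and 0.31 in males, with a called interaction (limma adjusted p 9.68e-05, edgeR 0.357). Both C6 and Hc were called with the tissue scores as well. MHC class II genes were called for 1 of 12, Ctss (0.51, limma adjusted p 0.0468, edgeR 0.0565), whose call was lost in 6 of the 8 fits without 1 animal, all but those without p21 animal 55 or p28 SW animal 74 (limma adjusted p up to 0.141). Lymph node genes were called for 0 of 14 B cell genes by limma or edgeR (0 at an unadjusted p under 0.05) and for 1 of 17 T cell genes, Ccr7, which fell by 0.85 and lost its call without p21 animal 55 or p28 SW animal 74 (limma adjusted p up to 0.0656). The T cell list's median was -0.39 with 1 positive change. Endothelial genes were called higher for 3 of 20 (1 without p21 animal 30), and lymphatic genes for 0 of 11 by limma or edgeR (2 at an unadjusted p under 0.05). Cldn5, the claudin of the vessel wall, was 24.2, 31.7, 20.2 and 17.4 at p21 and 56.4, 138, 61.7 and 91.2 at p28 (1.79, limma adjusted p 5.25e-05).

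Several genes of early growth were lower. Dlk1, an imprinted inhibitor of adipogenesis found on fat cell precursors, was 23.5, 9.51, 7.94 and 9.14 at p21 and 2.80, 2.21, 2.53 and 3.49 at p28. Its log2 change was -1.73 (SE 0.26, limma adjusted p 0.000108), -1.54 in males, and it was called with the tissue scores (-2.30, limma adjusted p 0.026). Nnat, neuronatin, another imprinted gene, was 879, 371, 428 and 312 at p21 and 76.2, 140, 171 and 115 at p28, with a limma log2 change of -1.92 (SE 0.32, adjusted p 0.00029). Of 20 genes of the imprinted growth network 4 were called lower and 1 higher, with a median of 0.02, and 2 were called without p21 animals 36 and 56. The other 2 that fell, Ndn (-0.50) and Magel2 (-0.71), neighbours on chromosome 7, lost the call in 7 and 6 of the 8 fits without 1 animal (limma adjusted p up to 0.129 and 0.131). Ndn was called only without p28 SW animal 74, and Magel2 only without p21 animal 55 or 56. Progenitor surface genes other than Dlk1 were called higher for 3 of 19, Wnt2 (0.80), Cd55 (0.58) and Anxa3 (0.46), the last of them not without p21 animal 30 or p28 SW animal 73 or 81 (limma adjusted p up to 0.0684). The growth hormone and IGF1 axis had 1 higher, Igfbp6 (1.55), and 1 lower, Igfbp3 (-0.84), of 18. Igfbp3 lost its call without p21 animal 30 or p28 SW animal 74 (limma adjusted p up to 0.0716).

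DNA replication genes were called lower for 8 of 26 and higher for 0 (background 4.23%), with a median log2 change of -0.36 and no positive change among the 26. Uhrf1, which carries DNA methylation through replication, was 25.3, 29.8, 29.4 and 32.1 at p21 and 16.2, 15.4, 16.0 and 16.8 at p28, with a limma log2 change of -0.81 (SE 0.15, adjusted p 0.00083). Mcm7, a subunit of the replicative helicase, was 35.5, 37.8, 34.9 and 37.0 at p21 and 24.1, 22.3, 25.0 and 26.4 at p28, with a limma log2 change of -0.55 (SE 0.09, adjusted p 0.000293). Both genes were separated by age, and males had 16 of the 26 called lower. The count depended on single animals: it was 2 without p21 animal 56 or p28 SW animal 74, 3 without p21 animal 36 or p28 SW animal 75 or 81, 4 without p21 animal 55, 10 at most, 2 without p21 animals 36 and 56 and 2 without the 3 animals of the muscle analysis. Mitosis genes were called lower for 1 of 26, Tpx2 (-0.46), whose call was lost in 6 of the 8 fits without 1 animal, all but those without p21 animal 30 or p28 SW animal 73 (limma adjusted p up to 0.117), against 9 in males. Mki67 was 52.1 to 72.7 at p21 and 50.7 to 71 at p28 and was not called (-0.09, limma adjusted p 0.757).

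The extracellular matrix changed in few genes. Of 18 collagens 1 was called, Col8a1, a short-chain collagen of vessel walls, at 5.37, 8.15, 4.23 and 7.10 at p21 and 14.5, 14.4, 12.4 and 15.8 at p28 (log2 change 1.11, limma adjusted p 0.000112), and Col1a1 was not (-0.20). Proteases and their inhibitors had 5 higher and 2 lower of 19, with 2 called without the 3 animals of the muscle analysis. Timp4, an inhibitor of metalloproteinases found in fat, was 91.2, 46.8, 68.3 and 58 at p21 and 20.2, 27.6, 33.3 and 25.5 at p28 (-1.26, limma adjusted p 0.000331), and Mmp14, a membrane-bound collagenase, rose by 0.75 (limma adjusted p 0.00661). Small leucine-rich proteoglycans had 1 higher of 13, crosslinking and processing enzymes 2 higher of 18, the Wnt pathway 4 higher and 1 lower of 32 (1 in all with edgeR and 0 without those 3 animals), and the TGF-beta, BMP and activin pathway 2 higher and 1 lower of 31 (1 in all without p28 SW animal 73, 74 or 75).

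Of 17 erythroid genes, which mark red cells and their precursors, 8 were called lower and 0 higher, with a median log2 change of -1.19, and 8 were called lower in males. edgeR called 5 of the 17 in females. Alas2, the first enzyme of haem synthesis in red cell precursors, was 75.5, 72.7, 86.9 and 119 at p21 and 21.8, 30.2, 11.6 and 13.9 at p28. Its log2 change was -2.20 (SE 0.37, limma adjusted p 0.000357), and it remained called with the tissue scores (-3.55, limma adjusted p 0.00286) and without the 3 animals of the muscle analysis (-1.85, limma adjusted p 0.0339). Tfrc, the transferrin receptor, which many growing cells also carry, was 136, 74.1, 83.1 and 78.1 at p21 and 38.0, 36.2, 27.2 and 35.7 at p28, and it fell by 1.4 (limma adjusted p 0.00306). The globin Hba-a1, which shares nearly all its sequence with Hba-a2, was 271 to 381 at p21 and 129 to 182 at p28 and was not called (log2 change -1.05, limma adjusted p 0.0835). The list had 4 calls without p21 animal 36 or 56 or p28 SW animal 75 or 81, 3 without p21 animals 36 and 56 and 2 without the 3 animals of the muscle analysis.

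Schwann cell and myelin genes, which mark the sheaths of nerves in the pad, were called lower for 9 of 15 and higher for 0, with a median of -0.64. Ncmap, a protein of non-compact myelin, was 12.0, 8.79, 5.62 and 7.48 at p21 and 3.87, 3.11, 3.06 and 3.85 at p28 (-1.05, limma adjusted p 0.00485). Males had 4 of the 15 called lower. The largest falls among genes called with and without the scores include others known from neurons and myelinating cells: Nfasc, neurofascin (-1.03), Kif1a, an axonal motor (-0.96), Fa2h, which hydroxylates the fatty acids of myelin lipids (-1.07), and Mal, a myelin and lymphocyte protein (-0.95). Fa2h and Mal each lost the call in 4 of the 8 fits without 1 animal, without p21 animal 30 or 36 or p28 SW animal 75 and, for Fa2h, 74 and, for Mal, 81 (limma adjusted p up to 0.0885 and 0.0669). The Schwann list had 4 calls without p21 animal 36, 5 without p28 SW animal 74 and 3 without p21 animals 36 and 56. The rule's remaining falls were Micall1, an endosomal recycling protein, at 140 to 187 and 71.7 to 88.9 (-0.99, limma adjusted p 0.000578), and Perm1, a muscle regulator of mitochondrial genes (-1.14, limma adjusted p 0.0368), whose call was lost in 6 of the 8 fits without 1 animal, all but those without p21 animal 56 or p28 SW animal 81 (limma adjusted p up to 0.137).

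Clock output genes were called lower for 5 of 18 and higher for 1, and glucocorticoid targets were called higher for 3 and lower for 3 of 18, a split that was 1 higher and 4 lower with edgeR. The hour of collection is not given, and its part in these values was not tested. Tef, a transcription factor of the clock's output, was 110, 44.7, 97.7 and 111 at p21 and 35.7, 35.5, 40.5 and 37.4 at p28, with a limma log2 change of -1.18 (SE 0.23, adjusted p 0.0013). Npas2, a factor of the clock's core, was 2.74, 11.3, 1.89 and 1.93 at p21 and 11.1, 12.4, 10.1 and 13.3 at p28 (1.51, limma adjusted p 0.00634, edgeR 0.0572). p21 animal 36 lay near the p28 level for both genes and apart from the other p21 animals. Per2 was 62.9, 12.7, 33.8 and 37.4 at p21 and 10.9, 13.3, 21.6 and 7.64 at p28, and Fkbp5, a glucocorticoid-induced chaperone, 91.5, 20.6, 49.2 and 53.7 and 13.5, 17.0, 36.5 and 16.4, again with animal 36 lowest at p21. Both fell in the limma fit (-1.28 and -1.25, limma adjusted p 0.0331 and 0.0224) and lost the call in 6 of the 8 fits without 1 animal, all but those without p21 animal 36 or p28 SW animal 75 (limma adjusted p up to 0.142 and 0.106). The glucocorticoid list had 1 call without p21 animal 55 or p28 SW animal 81 and 3 without p21 animal 30 or 56. Both lists had 0 calls without the 3 animals of the muscle analysis (limma).

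Finally, the smallest interaction p-values picked out 5 genes of low value that rose in females, with male log2 changes of -0.01 to 0.08 on the log2(value + 1) scale. That scale shows little of a change at values this close to 0. The male means at p21 and p28 SW were 0.0374 and 0.086 for Capn8, 0.0345 and 0.0845 for Kera, 0.0368 and 0.0955 for Proc, 0.069 and 0.117 for Pak6 and 0.175 and 0.168 for Ido1, so the male values do not show that the genes stayed flat in males. For Capn8 alone of the 5, the male SDs (0.0747 and 0.172) exceeded the means, so its male means do not show a rise either. Capn8, a calpain of the stomach lining, was 0.376, 0.592, 0.251 and 0.880 at p21 and 4.79, 4.85, 5.32 and 4.37 at p28, a log2 change of 1.95 in females and 0.06 in males (interaction limma adjusted p 2.83e-06). Ido1, which breaks down tryptophan, was 0.08, 0.404, 0.173 and 0.752 at p21 and 4.79, 2.76, 3.01 and 3.60 at p28, with changes of 1.75 and -0.01 (interaction limma adjusted p 3.82e-05). Kera, keratocan, a proteoglycan of the cornea, was 0.064, 0.15, 0 and 0.055 at p21 and 4.29, 2.28, 1.98 and 2.01 at p28, with changes of 1.73 and 0.07 (interaction limma adjusted p 6.47e-05). The groups of females were far apart for each. Pak6, a kinase, and Proc, protein C of the coagulation pathway, rose by 1.06 and 0.96. All 5 were called for the female change with the tissue scores as well as by edgeR without them. Capn8 rose with the mammary score within groups (slope 0.42, limma adjusted p 0.00276), and its log2 change was 1.26 with the scores in the model. Its adjusted p was 0.0477 with edgeR and 0.173 with DESeq2, which did not call it. All 5 interactions were called in each of the 16 fits that left out 1 animal. None of the 5 interactions was called by edgeR (adjusted p 0.17 to 0.901), and with the tissue scores the interaction was called for Capn8 and Pak6 (limma adjusted p 0.000683 and 0.0126).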

How the data were processed

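RNA of inguinal fat from 24 mice in 6 groups of 4 was prepared with a lipid tissue kit and an mRNA library kit and sequenced on a NovaSeq X Plus, per the labels' protocols. The submitters' processing notes name fastp, HISAT2, featureCounts, DESeq2 1.38.3 and the build mm10; the strand setting is not given in the sources used here. The deposited values are a normalised signal made by the authors, in whole reads divided by 1 factor per sample: 100% of the values were whole multiples of what 1 read is worth (tolerance 0.01 reads), which gave back the reads. The authors' log2 fold changes and adjusted p-values for the same groups are deposited in the same table. It has 16208 rows, of which 90 repeated gene identifiers were dropped. Deposited gene starts lay within 1000 bases of the RefSeq GRCm38.p6 start for only 2.9% of 15873 matched genes, so no gene coordinates of the table are printed, and promoters are RefSeq's.

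Genes with enough reads (filterByExpr, minimum count 10) were fitted on log2(value + 1) with limma 3.58.1 in R 4.3.3 (variance trend, 6 group terms, 24 samples, 18 residual degrees of freedom), with Benjamini-Hochberg adjustment over 16005 genes and a threshold of 0.05. Log2 changes on this scale understate low genes. edgeR 4.0.16 and DESeq2 1.42.0 on the recovered reads, other filters, pseudocounts and scalings, tissue scores as covariates and each animal left out were alternatives. The smallest chi-square per degree of freedom over 36 pairs of replicates was 77.1, so no 2 libraries of the same group were one library. Libraries of different groups were not compared in this way. The authors' scaling was 0.972 to 1.036 times that of TMM. Whether the animals were from separate litters is not given. The p-values of the main fit rest on the spread between animals within the 6 groups, pooled over all 24, and not on the compared females alone.

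Gene lists, members and tests were chosen with earlier results of these data known. Named genes were the 10 largest called rises and falls, leaving out genes whose 4 and 4 animals overlap or whose average log2(value + 1) is under 1; the same among genes called with and without the tissue scores, outside the other-tissue lists; the 5 smallest interaction p-values; and examples of each list, called ones by smallest p and others by role. Further genes were chosen after their values were seen. Some further genes of the rule are not reported here.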

Additional observations from a re-analysis of the deposited data

Results flagged for a closer look

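Of 260 checks of 1 animal against its own group of 4, 18 stood apart by Dixon's criterion at the 95% level. The criterion sets the gap to the nearest animal against the group's range, and by chance about 1 in 20 checks would be flagged. At p21, animal 30 was highest for Anxa8 (gap 0.872), Dlk1 (0.839) and Igfbp3 (0.93) and lowest for Elovl6 (0.954) and Scd3 (0.87). Animal 36 was highest for Elovl5 (0.898), Isg15 (0.886), Myh2 (0.909) and the correlation of value with GC content (0.95) and lowest for Tef (0.855). Animal 56 was highest for Dmkn (0.864) and lowest for the mitochondrial share (0.916). At p28 SW, animal 75 was lowest for Acss2 (0.871), Ebf2 (0.83) and Elovl6 (0.872), animal 74 highest for Cpn2 (0.907) and Isg15 (0.83), and animal 73 highest for Kera (0.831).

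The change from p21 to p28 SW differed between females and males, by limma's interaction test, for 14 of the genes named. The female minus male difference of log2 changes was 2.32 for Upk3a, 2.23 for Fgb, 2.18 for Cited1, 2.05 for Gata3, 2.01 for Cldn4 and for Itih2, 1.96 for Mup7 and 1.89 for Capn8. It was 1.86 for Pgr, 1.76 for Ido1, 1.69 for Hc, 1.66 for Kera, 1.0 for Pak6 and 0.88 for Proc. These differences are on the log2(value + 1) scale, which shows little of a change at values near 0. The means of Upk3a were 0.51 and 7.64 in females and 0.0166 and 0.182 in males (interaction adjusted p 0.995 by edgeR, 0.998 by DESeq2 and 0.115 by limma with a pseudocount of 0.1). Its male SDs, 0.0332 and 0.363, exceeded those male means. edgeR called the interaction for Gata3 among these and for none of the other 13. All but Mup7 were called in each of the 16 fits without 1 animal, and Mup7 was called in 4 of them (limma adjusted p up to 0.127). Fgb was called for the female change by limma and not by edgeR (adjusted p 0.0774).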

How the results depend on the processing

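The count of 1860 female calls was 1394 to 1603 without any 1 animal and stayed within 1.5 times under edgeR (1472), DESeq2 (1995), another scaling, filter or pseudocount, no variance trend, only the 2 groups (2406) and the muscle score (1282). It was 892 without p21 animals 55 and 56 and p28 SW animal 81 and 1222 without p21 animals 36 and 56, both chosen after seeing the data. It was 90 with the mammary score, 87 with both scores and 26 with B and T cell scores added; the cause was not tested. The male count of 1901 was 822 with only the compared groups, 403 with the muscle score, 390 with both scores, 616 with all 4 and 1150 to 1723 without 1 animal. The interaction count of 165 was 4 with edgeR, 102 with DESeq2, 38 with a pseudocount of 0.1, 2 with the mammary score, 2 with both, 2 with all 4 and 115 to 196 without 1 animal. The count of 87 with both scores was 34 with edgeR, 203 with DESeq2, 280 with a pseudocount of 0.1, 0 with only the compared groups and 43 to 86 without 1 animal.

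Among named genes, the log2 change turned sign for Ppara (0.13 with the mammary score, 0.073 with both), Myh4 (-0.43 without animals 55, 56 and 81), Mki67 (0.0042 without those 3 and 0.071 without p21 animals 36 and 56) and Ucp1 (0.63 and 0.053 likewise, and -1.21 to 0.033 without 1 animal). No paired analysis was possible because the animal numbers of the 2 groups do not overlap. Recovered reads were at least 57600711 in each library of the fit, and genes with values near 0, such as Kera, which was 0 in p21 animal 55, rest on few reads. 4 animals per group, age runs of animal numbers and the unequal muscle are further limits.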
